A study of Drosophila melanogaster with 4 samples.

Results

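The Retinin-like gene cluster is a group of 10 genes, retinin and 9 neighbours on chromosome arm 3L of Drosophila melanogaster: CG13044, CG13043, CG13042, CG13041, CG13060, CG13059, CG13040, CG13038 and CG13058, in the order of the gene table, with retinin last. They were picked by name from the 11982 genes that the array measures with a probe set of their own. Each had exactly 1 such probe set, so the rule of taking the brightest had nothing to choose between. The group was proposed with the differences between the groups on these same arrays in view. The members' differences are therefore given as a description, with no test. The study measured messenger RNA in eye discs dissected from pupae about 40 h after pupariation, raised at 29 °C. In the first group GMR-Gal4 flies were crossed to UAS-Yki, so that Yorkie (Yki), the coactivator of transcription that Hippo signalling holds back, was overexpressed. The control group carried GMR-Gal4 alone, so both groups carry the driver, in which the GMR enhancer turns on Gal4, an activator from yeast, in eye disc cells at and behind the morphogenetic furrow. Each group had 2 arrays, labelled as biological replicates. How many animals an array pooled is not given in the labels. The p-values below set a group difference against the spread between these arrays, estimated in part from all probe sets.

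Retinin is a secreted protein of the fly's corneal lens, the transparent cuticle that caps each ommatidium. The lens is laid down during pupal life by the cone cells and primary pigment cells, which lie above the photoreceptors. It is built from chitin and a small number of very abundant secreted proteins, and Retinin also takes part in the fine surface coating of the cornea. The other members are small predicted genes known by their CG numbers, for which the files give no function. No protein or promoter sequence was used here, so the name Retinin-like was not checked against sequence.

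Among the members, 6 of 10 had both Yki arrays above both control arrays, where 22.5% of all genes did. A further member, CG13044, had both Yki arrays below both control arrays, where 25.2% of all genes did, and the groups overlapped for the remaining 3. In either direction the groups were apart for 7 members and for 47.7% of all genes. The members were chosen with this contrast known, so these counts describe the choice and show nothing more. The largest differences were those of CG13060, CG13059, CG13038 and CG13058, which lie in 1 stretch of the gene order together with CG13040. These 4 were at least 2-fold higher in all 4 pairs of a Yki and a control array, as were 1.69% of all genes. No member was at least 2-fold lower in all 4 pairs, as 2.32% of all genes were. The median log2 difference over the 10 members was 1.31, against -0.01 over all genes, with a range from -1.14 for CG13044 to 4.27 for CG13060.

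The deposited intensities had the same trimmed mean of 500.01 on every array, so this value cannot show how alike the arrays were. The median probe set was brighter on replicate 2 than on replicate 1 in both groups. It had an intensity of 81.1 and 100.7 on the Yki arrays and 79.4 and 97.1 on the control arrays. The overexpressed gene followed the labels, with yki at 26417 and 26183 in Yki discs, against 1285 and 1261 in control discs (log2 difference 4.35, limma adjusted p 0.0251 over genes). Of the eye disc markers gl, so, eya, chp, elav and sev, none was listed at 0 on any array. The same held for all genes, so it does not show that these markers were expressed. The groups overlapped for 3 of these 6, 1 was higher and 2 were lower in Yki discs. The higher gene was chp (log2 difference 0.82). The lower genes were eya (-0.90), whose nearest pair of arrays differed by -0.02, and sev (-1.69, limma adjusted p 0.11). The values of sev were 59.3 and 82.4 on the Yki arrays, below the median probe set of each, against 288 and 238 on the control arrays. Marker genes of muscle and the glue genes of the salivary gland moved with the groups too. All 6 measured muscle markers had both Yki arrays above both control arrays, with a summed intensity of 14713 to 23216 in Yki discs and 4847 to 8578 in control discs. Of the 5 measured salivary gland markers, the 4 glue genes Sgs3, Sgs5, Sgs7 and Sgs8 had both Yki arrays below both control arrays. The remaining marker, fkh, measured 287 and 110 on the Yki arrays, against 143 and 183 on the control arrays. Its groups overlapped (log2 difference 0.14). The summed intensity of the 5 was 482 to 1934 in Yki discs and 20032 to 22050 in control discs. No marker of either list was at 0, and neither was any other gene. Over all genes, 22.5% had both Yki arrays above both control arrays and 25.2% had both below. The part of these tissues in the members' differences was not tested. In whole discs, more cells that express a gene and more RNA per cell cannot be told apart.

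CG13060 had the largest difference of the members. Its intensity was 1526 and 3335 on the Yki arrays, against 183 and 53.4 on the control arrays. The value of 53.4, on control replicate 2, lay below the median probe set of that array (97.1). The groups were far apart, although the replicates of both groups differed by more than 2-fold (2.19-fold between the Yki arrays and 3.43-fold between the control arrays). The means were 2431 ± 1279 in Yki discs and 118 ± 91.7 in control discs (SD, n = 2 each), a ratio of 20.5. The difference on the log2(intensity + 16) scale, used for all log2 differences below, was 4.27 (SE 0.63). It ranked 7 among all genes counted from the highest difference. An annotated noncoding RNA, lncRNA:CR45664, overlaps CG13060 and was not measured.

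CG13059, the next member along the chromosome, had the difference with the smallest error. Its intensity was 1768 and 2591 on the Yki arrays, against 201.5 and 199 on the control arrays. The control arrays were within 1.01-fold of each other and the Yki arrays within 1.47-fold, so both groups were tight and well separated. The means were 2179 ± 582 in Yki discs and 200.1 ± 1.99 in control discs, a ratio of 10.9 and a log2 difference of 3.32 (SE 0.28, rank 21 from the highest).

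CG13038 was measured at 644 and 2719 on the Yki arrays, against 152 and 117 on the control arrays. Both Yki arrays were far above the controls, but they lay 4.22-fold apart, with Yki replicate 2 the brighter. The means were 1682 ± 1467 in Yki discs and 134 ± 25 in control discs, a ratio of 12.5 and a log2 difference of 3.17 (SE 0.69, rank 25). The lowest and the highest of the 4 pairs of arrays differed by 1.98 and 4.37.

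CG13058 had an intensity of 218 and 543 on the Yki arrays, against 72.4 and 51.2 on the control arrays. Its control values were low, below the median probe set of each control array, and the groups were again apart. The means were 381 ± 230.3 in Yki discs and 61.8 ± 15 in control discs, a ratio of 6.16 and a log2 difference of 2.23 (SE 0.47, rank 82).

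CG13040 lies among these 4 genes and showed a smaller difference. It measured 286 and 456 on the Yki arrays, against 163 and 145 on the control arrays. The groups did not overlap, and the control arrays were within 1.12-fold of each other. The means were 371 ± 120.5 in Yki discs and 154 ± 12.4 in control discs, a ratio of 2.41 and a log2 difference of 1.15 (SE 0.30). The annotated span of CG13040 overlaps that of CG13039, which is not a member and has a probe set of its own. CG13039 had 26.5 and 55.4 on the Yki arrays, against 47.4 and 42.4 on the control arrays, and its groups overlapped (log2 difference -0.14, limma adjusted p 0.885).

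CG13042, which stands apart from these 5 in the gene order, was the remaining member with higher values on both Yki arrays. It measured 5985 and 7590 on the Yki arrays, against 3891 and 1515 on the control arrays. The Yki arrays were close together, while control replicate 2 lay 2.57-fold below control replicate 1. The means were 6788 ± 1135 in Yki discs and 2703 ± 1680 in control discs, a ratio of 2.51 and a log2 difference of 1.47 (SE 0.49). The nearest pair of arrays differed by 0.62.

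Retinin itself did not separate the groups. Its intensity was 139 and 488 on the Yki arrays, against 77.8 and 210.3 on the control arrays. Each group's second replicate was the brighter, and the lower Yki array lay below the higher control array. The means were 313 ± 247 in Yki discs and 144 ± 93.7 in control discs, a ratio of 2.18 and a log2 difference of 0.94 (SE 0.71). The pairs of arrays ran from -0.55 to 2.43, and with a single array left out the difference lay between 0.09 and 1.79. At this spread between replicates no direction can be given for the gene that names the cluster.

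CG13041 and CG13043 did not separate the groups either. CG13041 measured 760 and 2509 on the Yki arrays, against 2453 and 707 on the control arrays. Each group held 1 low and 1 high array, at nearly the same levels, and the means were 1635 ± 1237 in Yki discs and 1580 ± 1234 in control discs. Its log2 difference of 0.07 (SE 0.80) became -0.78 without Yki replicate 2 and -0.82 without control replicate 2. CG13041 is the member just before CG13060 in the gene order, and the log2 difference of 4.27 for CG13060 stands beside 0.07 for CG13041. The unmeasured lncRNA:CR45664 overlaps both genes, and asRNA:CR45663, also unmeasured, overlaps CG13041. CG13043 measured 14.1 and 190.7 on the Yki arrays, against 71.7 and 107 on the control arrays. The control arrays lay between the Yki arrays, which differed 13.5-fold, the widest replicate gap of the 10 members. Its log2 difference of -0.40 (SE 0.92) became 0.99 without Yki replicate 1.

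CG13044, the first member in the gene order, was the 1 member lower in Yki discs on both arrays. It measured 326 and 561 on the Yki arrays, against 926 and 1003 on the control arrays. The control arrays were within 1.08-fold of each other, and the groups did not overlap. The means were 443 ± 167 in Yki discs and 965 ± 54.5 in control discs, a ratio of 0.459 and a log2 difference of -1.14 (SE 0.33, rank 450 from the lowest). An annotated antisense RNA, asRNA:CR45890, overlaps CG13044 and was not measured.

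**Figure D1:**
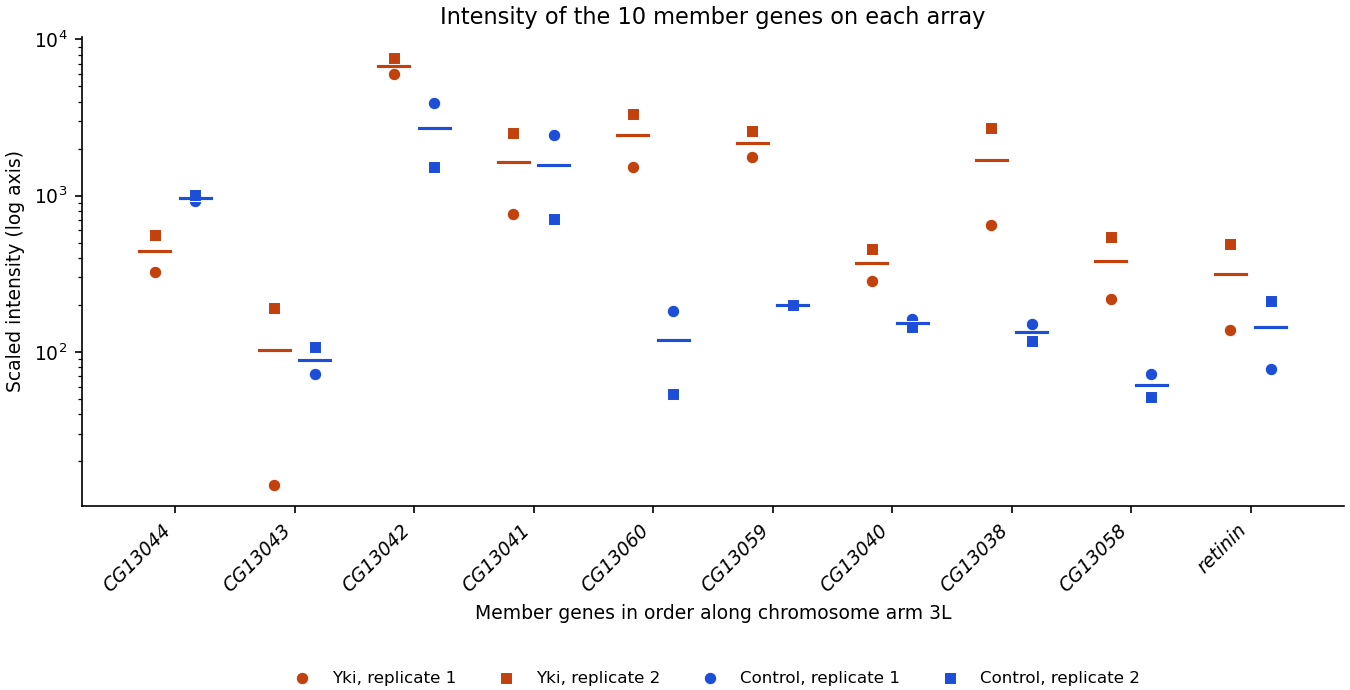
Scaled intensity (log axis) of the 10 members on each array, with the Yki arrays (orange) left of the control arrays (blue) for each gene, circles for replicate 1, squares for replicate 2 and bars for the mean of 2 arrays. CG13060, CG13059, CG13038 and CG13058 have both Yki points well above both control points, CG13044 has both below, and CG13043, CG13041 and retinin overlap.

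The members also differed in how well their replicates matched. The group difference was larger than the larger of the 2 replicate gaps for 7 of the 10 members, where this held for 34.1% of all genes. These 7 are the same members whose groups did not overlap. They were chosen with this contrast known, so the count describes the choice. For CG13043, CG13041 and retinin the replicate gap was the larger. Yki replicate 2 was brighter than Yki replicate 1 for all 10 members, while it was the brighter for 50.2% of all genes. In control discs replicate 2 was the brighter for 3 of 10 members, against 57.2% of all genes. The 23 measured genes around the members, described below, leaned the same way. Replicate 2 was the brighter for 69.6% of them in Yki discs and for 34.8% in control discs. The widest Yki gaps on the log2 scale were those of CG13043 (2.78), CG13038 (2.05), retinin (1.71) and CG13041 (1.70). The widest control gaps were those of CG13041 (-1.77), CG13060 (-1.52), CG13042 (-1.35) and retinin (1.27), given as replicate 2 minus replicate 1. The members' median difference was 1.06 without Yki replicate 2 and 1.71 without Yki replicate 1. With 1 Yki array against 2 controls the groups come apart more easily for every gene. Without Yki replicate 2, 6 members were above both controls (34.1% of all genes) and 2 below (39.8%). Without Yki replicate 1, 9 were above (40.4% of all genes) and 1 below (38.3%).

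**Figure D2:**
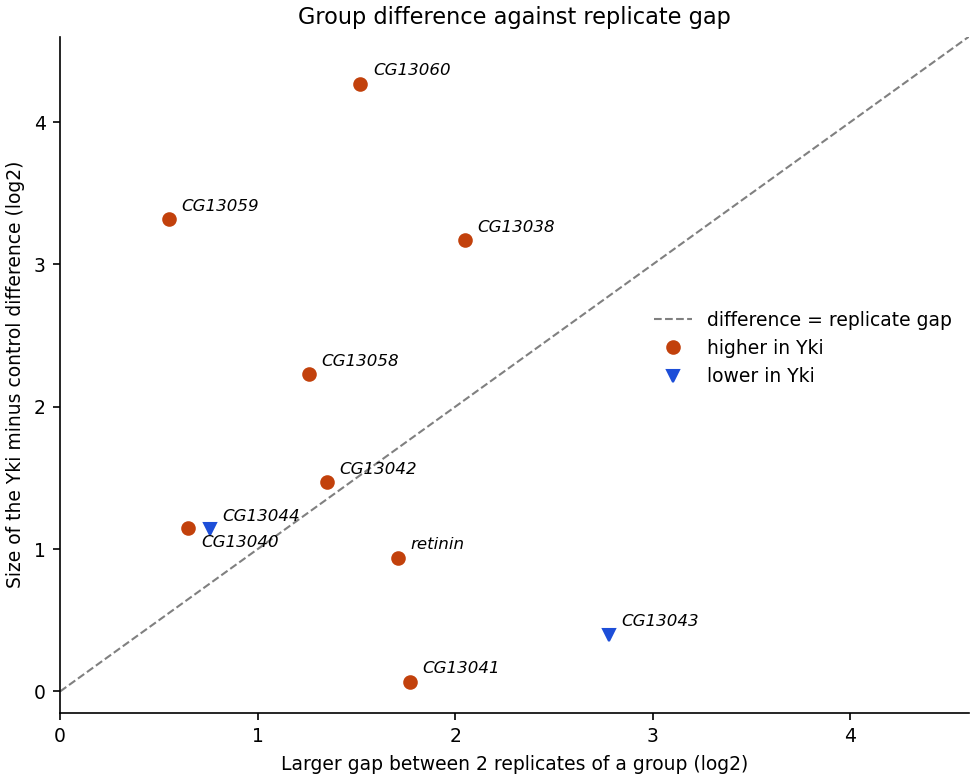
Size of the Yki minus control log2 difference (vertical) against the larger log2 gap between the 2 replicates of a group (horizontal), 1 point per member, with the dashed line where both are equal. The 7 members above the line include CG13059 with a gap of 0.55 and a difference of 3.32, while retinin, CG13041 and CG13043 lie below it.

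The members' place among all genes of the array can be read from the ranks of their differences. CG13060, CG13059, CG13038 and CG13058 ranked 7, 21, 25 and 82 from the highest of 11982 genes. CG13042, CG13040 and retinin followed at 280, 471 and 712, and CG13041 at 5154 was near the middle. CG13043 ranked 9538, and CG13044 at 11533 was in the lower tail. Some members were dim in control discs. Below the median probe set of the array lay 3 members on control replicate 1 and 2 on control replicate 2. On the Yki arrays 1 member did so on replicate 1 and 0 on replicate 2. A value under an intensity of 16, the constant added before taking logs, occurred in 1 member on 1 array, which was CG13043 on Yki replicate 1.

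**Figure D3:**
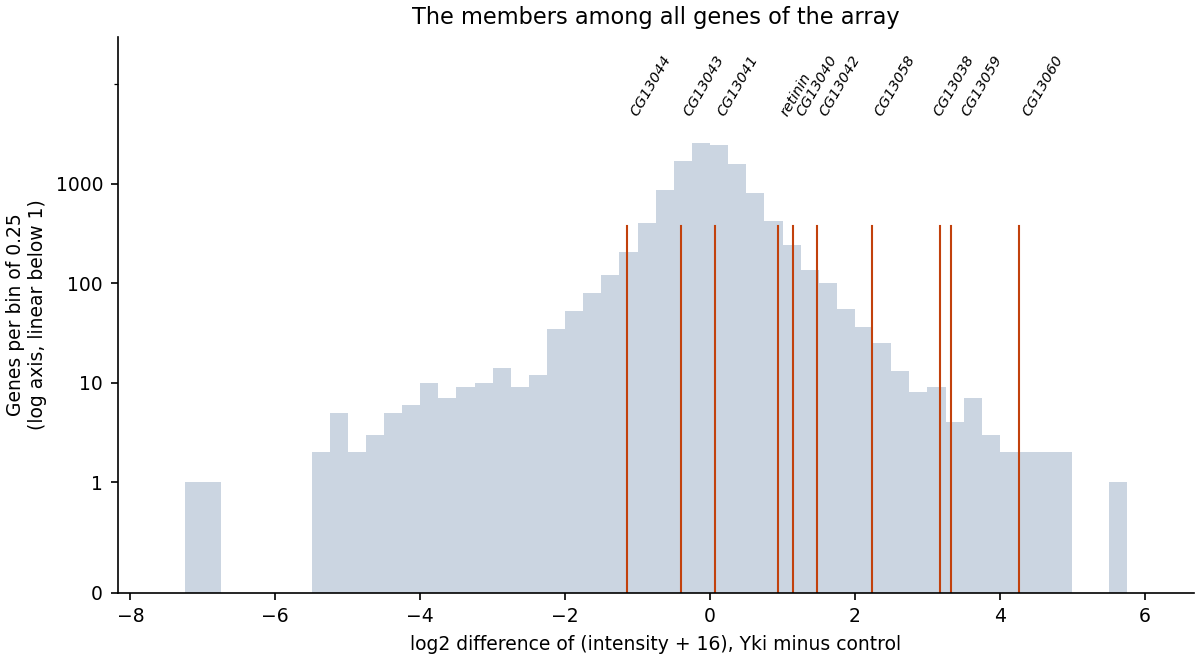
Number of genes (log axis, linear below 1) per bin of 0.25 in the Yki minus control log2 difference, over 11982 genes, with an orange line at each member. The lines run from -1.14 for CG13044 to 4.27 for CG13060, and CG13058, CG13038, CG13059 and CG13060 lie in the sparse upper tail.

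The genes around the members were taken by map order alone, from 10 annotated genes before CG13044 to 10 after retinin, and were tested over all genes. Of 32 such genes that are not members, 23 were measured. Their median log2 difference was 0.21, with 9 higher in Yki discs without overlap, 2 lower and 12 overlapping. Over all genes, 22.5% were higher without overlap and 25.2% lower, together 47.7%. With both directions pooled, the neighbours were apart about as often as genes in general. They were more often higher and less often lower than genes in general, which was not tested. At least 2-fold higher in all 4 pairs were 3 of the 23, against 1.69% of all genes. At least 2-fold lower in all 4 pairs were 0 of them, against 2.32% of all genes. None passed an adjusted p of 0.05 in limma (smallest 0.108), a level that 0.1% of all genes reached. At an unadjusted limma p under 0.05 there were 4 higher and 1 lower, and 15.3% of all genes passed in either direction. The gene just beyond the members on the CG13044 side with a measured value, CG4962, had the largest difference. It measured 17216 and 21463 on the Yki arrays, against 3324 and 5491 on the control arrays (log2 difference 2.17, SE 0.33, limma adjusted p 0.108). Further out on that side, CG13064 had 1164 and 929.9 on the Yki arrays, against 242 and 444 on the control arrays (log2 difference 1.62, limma adjusted p 0.155). Both genes had groups that did not overlap, as had the 2 named next.

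On the retinin side, CG4998 measured 12685 and 15430 on the Yki arrays, against 8697 and 3551 on the control arrays (log2 difference 1.33, limma adjusted p 0.296). Pdh, the photoreceptor dehydrogenase gene of visual pigment metabolism, measured 20071 and 25451 on the Yki arrays, against 7797 and 6693 on the control arrays (log2 difference 1.64, limma adjusted p 0.11). With the array medians subtracted before the fit, these 4 neighbours passed an adjusted p of 0.05 in limma, as did 6.64% of all genes.

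Between the first and the last member, 7 of 12 other annotated genes were measured, and their median log2 difference was 0.16. From CG13060 to CG13058 the table lists 7 genes, of which 6 were measured, 5 of them members. All 5 members had both Yki arrays above both control arrays, and the remaining measured gene was CG13039, which overlapped. Just beyond CG13058, the neighbouring genes CG33061 and CG33060, which overlap each other in the annotation, had log2 differences of 0.91 and 1.0 without overlap between the groups. Neither passed the limma test (adjusted p 0.353 and 0.363). From CG13044 to CG13041, 8 genes were measured, with 3 higher without overlap, 1 lower and 4 overlapping, and a median log2 difference of -0.13. Over all genes, 22.5% were higher without overlap and 25.2% lower. Nplp3, a neuropeptide-like precursor gene in that stretch, had 388 and 389 on the Yki arrays, against 270.4 and 260.5 on the control arrays (log2 difference 0.52, limma adjusted p 0.354). The 4 largest differences among the members stood in 1 stretch, which was picked out after the values were seen and was not tested as a stretch. Large differences also lay outside it. CG13042 (1.47) exceeded CG13040 (1.15) inside the stretch, and CG4962 (2.17), not a member, was close to CG13058 (2.23).

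**Figure D4:**
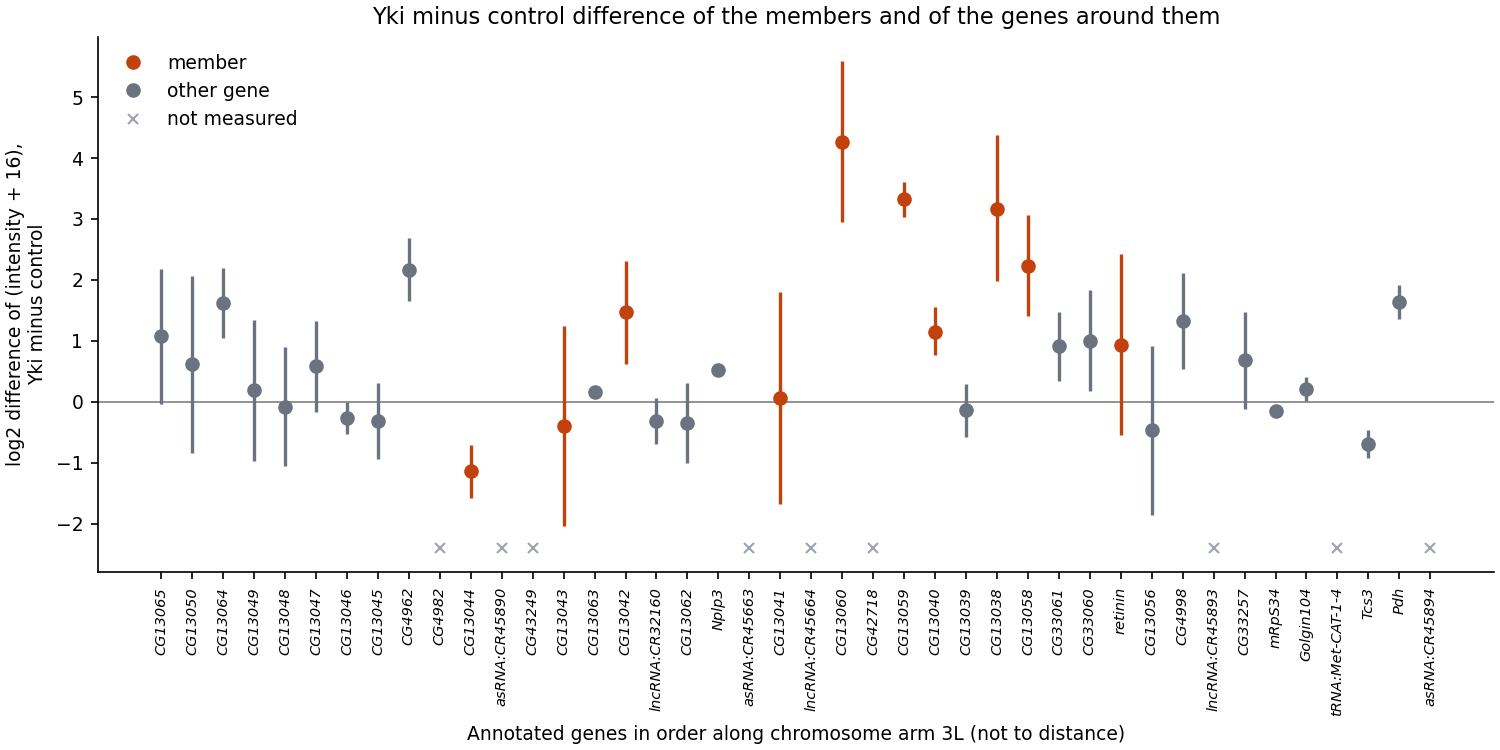
Yki minus control log2 difference of (intensity + 16) for each annotated gene in order along chromosome arm 3L, members in orange and other genes in grey, with bars from the lowest to the highest of the 4 pairs of arrays and crosses for genes that were not measured. CG13060, CG13059, CG13038 and CG13058 stand highest, with CG13040 at 1.15 and CG13039 at -0.14 among them, and CG4962 at 2.17 lies just outside the members.

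Other genes of the lens and of the cells that secrete it were taken from a textbook list, of which 11 of 12 were measured besides retinin. Their median log2 difference was 0.37, with 3 higher in Yki discs without overlap (22.5% of all genes), 3 lower (25.2% of all genes) and 5 overlapping. None passed an adjusted p of 0.05 in limma (smallest 0.144), a level that 0.1% of all genes reached. An unadjusted limma p under 0.05 was found for 1 higher and 3 lower, and for 15.3% of all genes in either direction. The cuticle protein genes Cpr72Ec and Cpr66D stood on the higher side, while Crys of the same list was not measured. Cpr72Ec measured 17742 and 21015 on the Yki arrays, against 8413 and 9124 on the control arrays (log2 difference 1.14, limma adjusted p 0.144). Cpr66D measured 18498 and 22000.3 on the Yki arrays, against 15545 and 6628 on the control arrays (log2 difference 0.99, limma adjusted p 0.388). Both had groups that did not overlap, unlike retinin. The groups did overlap for dyl, pio and dpy of the same list (log2 differences 0.94, -0.15 and 0.62).

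Transcription factor genes of the lens list lay on both sides of 0. sv, the Pax2 gene that cone cells need, measured 61.2 and 42.0 on the Yki arrays, against 102 and 179.8 on the control arrays (log2 difference -1.19, limma adjusted p 0.229). B-H2, a homeobox gene of primary pigment cells and outer photoreceptors, measured 510.4 and 488 on the Yki arrays, against 896 and 1024 on the control arrays (log2 difference -0.92, limma adjusted p 0.19). B-H1 was lower without overlap as well (log2 difference -0.69, limma adjusted p 0.319). lz, a Runt family gene, had 1152 and 2029 on the Yki arrays, against 819 and 1022 on the control arrays, also without overlap (log2 difference 0.73, limma adjusted p 0.408). The cone cell genes ct and pros had log2 differences of 0.37 and -0.20 with overlapping groups. Of the 3 pigment cell markers w, bw and cn, 2 were measured, and both had Yki arrays above the control arrays, with log2 differences of 1.49 for bw and 1.41 for cn.

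Genes that make, bind, modify or cut chitin, the fibre of lens and body cuticle, or regulate such genes, stood on both sides of 0. Of the list of 18, 16 were measured, with a median log2 difference of 0.24. There were 4 higher without overlap (22.5% of all genes), 2 lower (25.2% of all genes) and 10 overlapping. None passed an adjusted p of 0.05 in limma (smallest 0.254), a level that 0.1% of all genes reached. An unadjusted limma p under 0.05 was found for 2 higher and 2 lower, and for 15.3% of all genes in either direction. The 4 higher were kkv (0.67), the chitin synthase gene, obst-E (1.65), the chitinase family gene Cht7 (1.36) and Cda5 (0.96). The 2 lower were Cht5 (-0.89) and Cht10 (-0.75), of the chitinase family as well. These 6 were named after their values were seen. With the array medians subtracted, obst-E and Cht7 passed an adjusted p of 0.05 in limma, in the setting where 6.64% of all genes did.

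**Figure D5:**
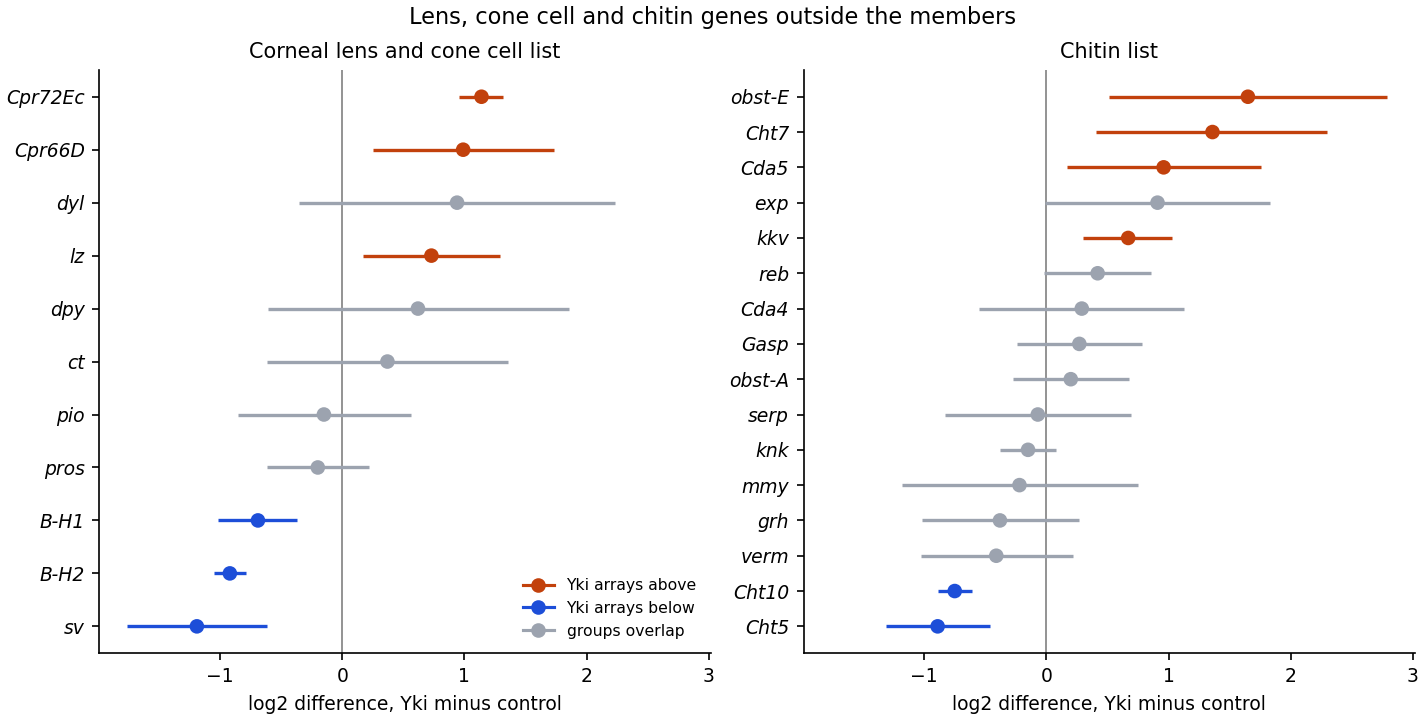
Yki minus control log2 difference of the measured lens and cone cell genes (left) and chitin genes (right), with bars from the lowest to the highest of the 4 pairs of arrays, orange where both Yki arrays lie above both control arrays, blue where both lie below and grey where the groups overlap. The lens proteins Cpr72Ec (1.14) and Cpr66D (0.99) are at the top of the left panel and sv (-1.19) and B-H2 (-0.92) at the bottom.

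Profiles most like the members were found by the root mean square distance of log2(intensity + 16) over the 4 arrays, a measure that takes in level and pattern and depends on each probe set's own brightness. Nearest to retinin were Tob (0.20), Pkc53E (0.29), a protein kinase C gene, and Obp18a (0.35), of the odorant-binding protein family. Like retinin, each had its second replicate as the brighter one in both groups. Tob measured 153 and 425 on the Yki arrays, against 69.3 and 260.4 on the control arrays. Nearest to the mean profile of the 10 members were CG14301 (0.18), mol (0.20) and dati (0.21). CG14301 measured 578 and 1296 on the Yki arrays, against 258 and 205 on the control arrays, with a log2 difference of 1.84. With 4 arrays many genes lie close to any profile, so these are descriptions.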

How the data were processed

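Biotin-labelled cRNA of each sample was hybridised to 1 Affymetrix Drosophila Genome 2 array, per the labels' protocols. The authors deposited a table of linear intensities over 18952 probe sets, made with Affymetrix Expression Console per the submitters' processing notes. The summary algorithm is not given in the sources used here. The trimmed mean of the deposited intensities is the same on every array, which was tested on the table. After removing 183 control probe sets, limma 3.58.1 in R 4.3.3 (lmFit, eBayes, group as the only term) was fitted to log2(intensity + 16) over 18769 probe sets. The scale understates changes of dim probe sets. Genes were named through the platform annotation: 13647 probe sets had 1 symbol, 402 several and 4720 none. The brightest probe set with 1 symbol stood for a gene, and Benjamini-Hochberg adjustment was over 11982 genes, with calls at an adjusted p under 0.05. Map order came from RefSeq (Release 6 plus ISO1 MT); no coordinates are given because the platform annotation names no build. The fit was tested on simulated data. Residual degrees of freedom were 2, and moderation added 3.03. With 2 arrays a group, the smallest two-sided p of an exact permutation test is 0.333.

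The members and lists were chosen with earlier results of these data known. The genes named were yki, the members, the 4 map neighbours and 4 lens list genes with the largest difference among those whose groups do not overlap, and the 3 nearest profiles. Others (CG13039, CG33061, CG33060, CG13063, lncRNA:CR32160, Nplp3, lz, B-H1, ct, pros, dyl, pio, dpy, markers and chitin genes) were named after their values were seen. A planned list of genes with similar proteins was not used here. Lists of haemocyte, fat body, glial, tracheal and cone cell markers had 1 to 4 measured genes each, with median log2 differences of -0.10, -0.38, 0.01, -0.38 and -0.20. Single genes within them were apart. Higher without overlap were 2 haemocyte genes and 1 glial gene, moody (log2 difference 1.5), against 22.5% of all genes. Lower without overlap were 1 haemocyte, 1 fat body and 1 cone cell gene, against 25.2% of all genes. Alternatives were 2 other pseudocounts, 2 other scalings, a filter on dim probe sets, trended and robust moderation, the replicate number as a block, each array left out, and the dimmest probe set per gene.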

Additional observations from a re-analysis of the deposited data

How the results depend on the processing

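The members' median log2 difference of 1.31 lay between 1.06 and 1.71 when 1 array was left out, and between 1.21 and 1.35 in the other settings. The number of members whose groups did not overlap was 7 with all arrays (47.7% of all genes) and 8 to 10 with 1 array left out, where 70.4% to 78.7% of all genes were apart. With the other pseudocounts and scalings none of the 10 members changed sign, and the largest move was 0.51. The filter, the moderation, the block and the choice of probe set leave a member's difference as it is. Leaving out 1 array changed the sign of CG13041 without control replicate 2 (-0.82) and without Yki replicate 2 (-0.78), and of CG13043 without Yki replicate 1 (0.99). With 1 array left out CG13041 ran from -0.82 to 0.95 and CG13043 from -1.79 to 0.99. The number of called genes differed widely between settings. It was 12 genes (3 probe sets) with all arrays, 0 (0) with a pseudocount of 1, 2 genes with a pseudocount of 64, 796 (874) with array medians subtracted and 20 (12) after quantile normalization. It was 60 (42) for probe sets with a mean intensity of at least 50, 58 (20) with trended and robust moderation, and 65 (27) with the replicate block. With any 1 array left out it was 0 (0). The 796 calls were 388 higher and 408 lower, and the 12 were 2 higher and 10 lower. With array medians subtracted, where 6.64% of genes were called, 4 map neighbours and 2 chitin genes were among them. The chitin list was added to the alternatives after the data were seen. The cause of these changes was not tested. The labels do not say that replicate numbers mark shared batches, so the numbers were not used as pairs. Over probe sets, deviations of same-numbered arrays from their group means correlated at 0.039. Such a correlation cannot show a shift that all probe sets share. The median probe set was brighter on replicate 2 in both groups (81.1 and 100.7 on the Yki arrays, 79.4 and 97.1 on the control arrays). Whether replicate numbers mark a batch was not tested. The alternatives for genes with similar proteins were not run. With 2 arrays a group, a difference as uncertain as that of retinin (SE 0.71) cannot be resolved.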
